A study of Mus musculus with 6 samples.

Results

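These results concern 174 double-stranded DNA sequences that carry a binding site for the mouse protein Gli and differ from a shared reference only near its 3′ end. The reference holds the most frequent base at each of the 16 positions of a table of 1266 sequences. The 174 sequences equal it at positions 1 to 12 and differ from it at 1, 2 or 3 of positions 13 to 16. All 174 sequences that this rule can give were present, 12 with 1 mismatch, 54 with 2 and 108 with 3.

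Libraries of site variants were incubated with recombinant mouse Gli (Gli1 in the titles), and DNA that ran with the protein on a gel (bound) was separated from DNA that ran without it (unbound). The series holds 3 such reactions with 1 bound and 1 unbound library each, so no value has a replicate. The 16-base table gives 1 bound and 1 unbound count per sequence and names neither its reaction nor the methylation state of its DNA. The samples titled R1-R5 are labelled as holding barcoded unmethylated libraries together with libraries methylated at CpG by the enzyme M.SssI. The same 174 sequences were also counted in the reaction titled R4-R6, whose table lists positions 10 to 16 only. The characteristics of its samples describe a library named for CTCF, in conflict with their titles, and the titles and block headings were followed.

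Gli proteins are the transcription factors through which the Hedgehog pathway acts on its target genes. They read DNA through an array of C2H2 zinc fingers that lies along the major groove, and different fingers contact different parts of the site. Positions 1 to 9 of the reference spell the known Gli consensus. Positions 13 to 16 lie beyond its 3′ end, where flanking bases are known in general to tune the affinity of zinc finger proteins.

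The sequences on which the results turn are given here 5′ to 3′, each named by its 4 bases at positions 13 to 16. Capitals mark the bases that differ from the reference. The first line is the reference. The next 12 are all its single variants. The following lines are the variants at the ends of the measured ranges and those with which position 14 is described.
TGAA (reference, 0 mismatches): gaccacccaagatgaa
AGAA (T13A): gaccacccaagaAgaa
CGAA (T13C): gaccacccaagaCgaa
GGAA (T13G): gaccacccaagaGgaa
TAAA (G14A): gaccacccaagatAaa
TCAA (G14C): gaccacccaagatCaa
TTAA (G14T): gaccacccaagatTaa
TGCA (A15C): gaccacccaagatgCa
TGGA (A15G): gaccacccaagatgGa
TGTA (A15T): gaccacccaagatgTa
TGAC (A16C): gaccacccaagatgaC
TGAG (A16G): gaccacccaagatgaG
TGAT (A16T): gaccacccaagatgaT
TGGG (A15G, A16G): gaccacccaagatgGG
GAAA (T13G, G14A): gaccacccaagaGAaa
GCAA (T13G, G14C): gaccacccaagaGCaa
CAAA (T13C, G14A): gaccacccaagaCAaa
CGTT (T13C, A15T, A16T): gaccacccaagaCgTT
CGCC (T13C, A15C, A16C): gaccacccaagaCgCC
GGGG (T13G, A15G, A16G): gaccacccaagaGgGG
GCGA (T13G, G14C, A15G): gaccacccaagaGCGa
TCGG (G14C, A15G, A16G): gaccacccaagatCGG
CAAG (T13C, G14A, A16G): gaccacccaagaCAaG
AATA (T13A, G14A, A15T): gaccacccaagaAATa

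Relative binding is the ratio of bound to unbound reads after 0.5 was added to each count, and a higher ratio means that more of the sequence ran with the protein within its reaction. Differences between ratios are on the natural log scale with their counting standard error (SE). The reads carry no molecular identifiers and do not stand for separate molecules after PCR, so every SE covers counting error only. The members had 422751 bound and 11553 unbound reads in the 16-base table, with a median of 1942 and 58 reads per sequence. The lowest unbound count was 12, and all 174 passed the minimum of 10 reads in each fraction. In the R4-R6 reaction they had 131733 bound and 187009 unbound reads, with medians of 430.5 and 927. Ratios of the 2 tables are not on a common scale, since bound and unbound libraries were not scaled for depth. Bound reads made up 97.3% of the members' reads in the 16-base table and 41.3% in the R4-R6 reaction. Without such scaling these shares do not give the fraction of DNA that was bound. A depth factor common to a table cancels in fold differences from that table's own reference. Whether fold differences are unlike in size between the tables for reasons other than the sequence was not tested.

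Changes at positions 13 to 16 moved the ratio in the 16-base table over a 4.91-fold range, from 17.6 for AATA to 86.6 for CGCC, around a median of 31.6. The reference TGAA had 8450 bound and 236 unbound reads, a ratio of 35.7. Of the 174 members, 37 (21.3%) were lower than the reference by more than 2 counting SE, against 62.9% of all sequences of the table. Another 23 (13.2%) were higher, against 9.5% of the table. When a 1.5-fold difference was required as well, 23 members (13.2%) were lower and 13 (7.47%) higher, against 58.9% and 6.41% of the table. The other members lay within 2 counting SE of the reference, which at this depth does not show that they bound alike. The reference belongs to all 5 windows of the table, and its unbound count exceeds that of every member. Set against the median of the members instead, 27 were lower and 44 higher by more than 2 counting SE.

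The number of mismatches alone separated the members little. Mean log ratios were 3.42 ± 0.25 (SD, n = 12 sequences) with 1 mismatch, 3.45 ± 0.28 (n = 54) with 2 and 3.53 ± 0.33 (n = 108) with 3, against 3.58 for the reference. Sequences that differ at all 4 positions, which are not members, had a mean of 3.60 ± 0.28 (n = 81). The means thus differed by less than the SD within each set. In the R4-R6 reaction the means fell with the number of mismatches. They were 0.28 ± 0.92 (SD) with 1, -0.37 ± 0.93 with 2, -0.89 ± 0.83 with 3 and -1.38 ± 0.45 with 4. Sequences with more mismatches also more often lack G at position 14. Means in that reaction were therefore also taken for each set of changed positions. Sets that keep this G had means of 0.43 to 0.95 with 1 mismatch, 0.35 to 0.50 with 2 and 0.28 with 3. Those that lose it had -0.998 with 1, -1.32 to -0.94 with 2, -1.41 to -1.15 with 3 and -1.38 with 4. Every set that keeps this G thus had a higher mean than every set that loses it.

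Which positions were changed went with larger differences than how many. Keeping G at position 14 also adds to the number of G and C. At equal numbers of G and C its difference was smaller, as given below. Members that kept G at position 14 had a median ratio of 41.1 (n = 63), and those that lost it had 28.2 (n = 111). The ranges overlapped widely, from 24.6 to 86.6 and from 17.6 to 54.2. Of the 23 members above the reference, 21 kept G at position 14, while 32 of the 37 below it had lost it.

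Among double variants, those changed at positions 14 and 15 had the lowest median ratio, 25.2, from 19.3 for TTCA to 31.1 for TTGA. Variants changed at 14 and 16 had a median of 26.9, from 19.8 for TAAG to 31.0 for TTAC. At positions 13 and 14 the median was 27.2, between ACAA at 20.7 and GCAA at 34.6. The remaining 3 pairs of positions leave G14 in place, and their medians were higher. Positions 13 and 15 gave 34.5, with AGTA at 24.6 and GGCA at 57.5. For positions 15 and 16 the median was 37.3, with TGTG at 28.3 and TGGG at 59.8. With changes at 13 and 16 it was 40.8, with AGAG at 24.9 and CGAC at 48.5.

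The same division held among triple variants. Those changed at 13, 15 and 16, which keep G14, had a median ratio of 50.2 (n = 27), and 16 of the 27 exceeded the reference by more than 2 counting SE. Their range ran from 27.9 for AGTT to 86.6 for CGCC. The other triple sets had medians of 26.7, 28.8 and 31.8, with 2 members above the reference among 81. Their highest members were GCGA at 49.5, GTAG at 42.2 and TCCC at 54.2, and their lowest were AATA at 17.6, ATAC at 22.1 and TACT at 19.0. TCCC rested on 12 unbound reads and did not differ from the reference beyond 2 counting SE, at 0.42 ± 0.29.

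The single variants show the size of individual effects beside their counts, first at position 13. T13C (CGAA) had 3750 bound and 81 unbound reads and a ratio of 46.0. T13G (GGAA) had 7341 and 164 reads and a ratio of 44.6. T13A (AGAA), with 2678 and 95 reads, had a ratio of 28.0. Only T13G differed from the reference by more than 2 counting SE, at 0.22 ± 0.10. These 3 sequences also belong to the window of positions 10 to 13, so their reads can come from either library.

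At position 14 all 3 substitutions had lower ratios than the reference. G14A (TAAA) had 893 bound and 44 unbound reads and a ratio of 20.1, a difference of -0.58 ± 0.17. G14C (TCAA) had 1156 and 41 reads, at -0.25 ± 0.17, and G14T (TTAA) had 1198 and 45 reads, at -0.30 ± 0.16. Only G14A exceeded 2 counting SE.

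At position 15, G and T in place of A went with lower ratios. A15C (TGCA) had 2708 bound and 65 unbound reads and lay within 2 counting SE of the reference, at 0.15 ± 0.14. A15G (TGGA) had 3552 and 129 reads, at -0.26 ± 0.11, and A15T (TGTA) had 2636 and 100 reads, at -0.31 ± 0.12. The last 2 differences exceeded 2 counting SE. At position 16 none did, with A16C (TGAC) at -0.21 ± 0.16, A16G (TGAG) at -0.06 ± 0.12 and A16T (TGAT) at -0.26 ± 0.14. The counts behind them were 1461 bound and 50 unbound reads, 3797 and 112, and 1828 and 66.

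Across all members the ratio followed the number of G and C at positions 13 to 16. The 14 members without G or C had a median ratio of 23.0, the 50 with 1 had 26.3, the 66 with 2 had 32.6, the 36 with 3 had 43.7 and the 8 with 4 had 64.8. None of the 64 members with 0 or 1 G or C was above the reference by 2 counting SE, while none of the 44 with 3 or 4 was below it. Those called lower numbered 8 of 14 without G or C, 19 of 50 with 1 and 10 of 66 with 2. Those called higher numbered 1 of 66 with 2, 14 of 36 with 3 and 8 of 8 with 4.

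Ranges of neighbouring classes overlapped, at the top by the members between 56.7 and 59.8. Members without G or C ran from 17.6 (AATA) to 30.2 (TATT), and those with 1 from 19.0 (TACT) to 39.4 (AGAT). With 2 the range was 22.8 (ACGA) to 49.1 (TAGC), and with 3 it was 29.1 (CCAC) to 59.8 (TGGG). The 8 members with 4 spanned 56.7 (GGCC) to 86.6 (CGCC), and all of them keep G14. CGCC had 1861 bound and 21 unbound reads, the fewest unbound reads of these 8, while GGGG had 11820 and 176 and a ratio of 67.0.

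Within a class the spread was close to what counting gives at the extremes. The SD of log ratios was 0.15 for members without G or C and 0.13 for those with 4, against root mean square counting SEs of 0.16 and 0.12. In the classes with 1, 2 and 3 the SDs were 0.17, 0.19 and 0.19, against 0.15, 0.14 and 0.13. The spread thus exceeded counting error in these 3 classes.

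The log ratio was higher by 0.25 ± 0.01 (regression SE) per G or C, a 1.28-fold step, and the number of G and C held 63.8% of the variance over the 174 members. Sequences are not independent replicates in this slope. Taken position by position the step was 0.29 ± 0.03 for position 13, 0.25 for 14, 0.21 for 15 and 0.24 for 16, each with an SE of 0.03. It was 0.24 ± 0.07 over single, 0.23 ± 0.03 over double and 0.26 ± 0.02 over triple variants. The sequences with 4 mismatches gave 0.24 ± 0.02, and the members of the same rule at positions 10 to 13 gave 0.31 ± 0.02 (n = 174).

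G and C did not count alike in the reads behind the ratio. Per G the log ratio was higher by 0.28 ± 0.02 and per C by 0.19 ± 0.02. Bound reads were 1.98-fold more numerous per G (0.69 ± 0.02 in log reads), and unbound reads 1.49-fold more numerous (0.40 ± 0.02). Per C bound reads hardly differed, at 0.01 ± 0.02, and unbound reads were fewer, at -0.19 ± 0.03. For G both read numbers were higher, the bound more so, while for C only the unbound number differed. In the R4-R6 reaction, log bound reads were also higher per G, by 0.83 ± 0.06, and log unbound reads by 0.38 ± 0.04. Per C they were lower there, at -0.16 ± 0.07 and -0.16 ± 0.04, and the slope of the log ratio per C was -0.0034 ± 0.086. By position, log bound reads in that reaction were higher by 1.03 for G or C at 14, against 0.31 at 13, 0.10 at 15 and 0.06 at 16, each ± 0.14. The slopes per G include G14 and were not separated from it. The part of library composition, PCR and gel recovery in these read numbers was not tested.

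At a fixed number of 2 G or C, members with 2 G had a median ratio of 36.2 (n = 18), those with 1 G and 1 C had 35.5 (n = 33), and those with 2 C had 27.6 (n = 15). The last group ran from 23.1 (CTCA) to 32.8 (TCCT), below the reference throughout, although only 3 of the 15 differed from it by more than 2 counting SE. With 3 G or C the medians were 51.4 for 3 G (n = 6), 44.1 for 2 G (n = 15), 41.9 for 1 G (n = 12) and 32.2 for 0 G (n = 3). Members without any G cannot keep G14, so the number of G and the keeping of G14 were not separated in these groups.

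Keeping G14 went with a smaller difference once members of equal G and C number were compared. Mean log ratios with and without G14 were 3.37 and 3.26 at 1 G or C (n = 7 and 43), 3.55 and 3.46 at 2 (n = 24 and 42) and 3.84 and 3.67 at 3 (n = 24 and 12). The SDs within these sets were between 0.16 and 0.20, so each difference was smaller than or close to the spread.

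CpG, the dinucleotide that M.SssI methylates, occurs inside positions 13 to 16 in 29 members. Their median ratio was 43.0, against 29.5 for the 145 members without CpG. At the same number of G and C the gap was small. Mean log ratios with and without CpG were 3.55 and 3.48 at 2 G or C (n = 9 and 57), 3.76 and 3.81 at 3 (n = 15 and 21), and 4.22 and 4.14 at 4 (n = 5 and 3). Averaged over these classes the difference was 0.011, against 0.33 without matching. By place, the median ratio was 47.2 for C at position 13 (n = 16), 36.9 for C at 14 (n = 7) and 40.7 for C at 15 (n = 7), and 1 member, CGCG, holds a CpG at both ends. In the R4-R6 reaction the median ratio was 1.62 with CpG and 0.392 without. By place it was 1.97 for C at position 13, which always goes with G14, 0.254 for C at 14 and 0.584 for C at 15. Since the 16-base table does not state how its DNA was methylated, and no state is given here for the R4-R6 reaction, these values carry no comparison of methylation states.

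A sum of independent base effects described most of the 16-base values. A model with 1 term per base and position held 72.8% of the variance over the members and the reference (n = 175), with a residual SD of 0.17, which is 1.18 times the counting SE. Its largest terms were G14A at -0.33 ± 0.04, T13G at 0.33 ± 0.04 and G14T at -0.30 ± 0.04 (regression SE). A16G and A16C followed at 0.26 ± 0.04 each, although neither single variant had a ratio above that of the reference.

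When the same substitution was followed through every context, its size varied around these terms. T13G gave a mean difference of 0.35 ± 0.18 (SD over 37 contexts) and was higher in 35 of them. G14A gave -0.30 ± 0.23 and was lower in 33 of 37. A15G gave 0.21 ± 0.26 and was higher in 30 of 37, whereas in the reference context it was lower, at -0.26. A15T, at -0.01 ± 0.20, was lower in 21 contexts and higher in 16. Contexts share sequences, and these counts of directions apply no threshold.

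Double variants were compared with the sum of their single effects. Of 54, 9 (16.7%) lay above the sum by more than 2 counting SE and 0 below, against 10% above and 21.9% below over the 270 double variants of all windows. TGGG lay furthest above. Its singles A15G and A16G sum to -0.32, while the double variant was at 0.52, a departure of 0.84 ± 0.17. TGGC and TAAC followed, at 0.62 ± 0.21 and 0.61 ± 0.30. The lowest were TTCA at -0.46 ± 0.24, CTAA at -0.26 ± 0.25 and TCCA at -0.25 ± 0.27, all within 2 counting SE of the sum. Every such departure contains the reference and single variants, so departures share their errors. Of the 108 triple variants, 33 (30.6%) lay above the sum by more than 2 counting SE and 0 below. Over the 540 triple variants of all windows, 15.4% lay above and 20.7% below by the same rule. The median departure of the 108 was 0.40.

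In the R4-R6 reaction the same members gave a different picture, in which position 14 was the main divide. Ratios spanned from 0.120 for CAAG and CAAC to 4.59 for CGAA, and the reference had 3292 bound and 898 unbound reads, a ratio of 3.66. Members that kept G14 had a median ratio of 1.60 and ran from 0.560 (GGGG) to 4.59. Those that lost it had a median of 0.273 and ran from 0.120 to 0.893 (ACAA). The medians differed 5.87-fold, against 1.46-fold in the 16-base table, and the cause of this difference was not tested. Only 7 of the 111 members without G14 exceeded the lowest of the 63 with it. By the 16-base counts, 84 of the 111 did.

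Against the reference 167 of 174 members (96%) were lower in this reaction by more than 2 counting SE, near the 95.9% of all sequences of the block. Only 3 (1.72%) were higher, near the 1.97% of the block. With a 1.5-fold difference required as well, 164 (94.3%) were lower and 0 higher, against 93.7% and 1.18% of the block. The 3 higher members were CGAA, CGAT and CGTT, which share C at position 13 before G14, a CpG, and no other G or C. CGTA has these traits as well but was lower than the reference, at -0.28 ± 0.06. CGAA had 2508 bound and 546 unbound reads and CGTT had 2034 and 449, with ratios of 4.59 and 4.53. AGAA at 3.37, AGAT at 3.26, TGAT at 3.89 and TGTT at 3.49 lay within 2 counting SE of the reference. The 3 higher members and those within 2 counting SE all keep G14.

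Single substitutions at position 14 had unlike fold sizes in the 2 tables, for reasons that were not tested. G14A had 133 bound and 578 unbound reads in the R4-R6 reaction and was 15.9-fold lower than the reference, against 1.78-fold in the 16-base table. G14C, with 321 and 692 reads, was 7.89-fold lower, against 1.28-fold, and G14T, with 399 and 853 reads, was 7.83-fold lower, against 1.36-fold. Over 37 contexts G14A was lower in all 37, with a mean of -2.05 ± 0.78 (SD), and so were G14C at -1.65 ± 0.74 and G14T at -1.54 ± 0.62.

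Substitutions at the other positions had smaller effects there. T13C, with 2508 bound and 546 unbound reads, was higher than the reference by 0.23 ± 0.06. All 3 changes at position 15 were lower, A15C at -0.69 ± 0.06, A15G at -1.30 ± 0.05 and A15T at -0.61 ± 0.05. At position 16, A16C was at -0.88 ± 0.07 and A16G at -0.83 ± 0.05, while A16T, with 1583 and 407 reads, was at 0.06 ± 0.07. T13A was at -0.08 ± 0.06, within 2 counting SE of the reference.

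The effect of T13G in the R4-R6 reaction turned with the base that follows. Before G14 it was lower in 16 of 16 contexts, with a mean of -0.85 ± 0.27 (SD). Where G14 was lost it was higher in 21 of 21, with a mean of 0.41 ± 0.14. The double variants GAAA and GCAA accordingly lay above the sum of their singles by 1.57 ± 0.13 and 1.42 ± 0.10. In the 16-base table T13G was higher in 15 of 16 contexts with G14 and in 20 of 21 without it, with means of 0.33 ± 0.18 and 0.35 ± 0.18.

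T13C also depended on position 14 in that reaction. It was higher in 16 of 16 contexts before G14, at 0.25 ± 0.09 (SD), and lower in 17 of 21 without G14, at -0.35 ± 0.31. Its double variant CAAA had 73 bound and 507 unbound reads and lay -0.69 ± 0.17 from the sum of its singles. In the 16-base table T13C was higher in 16 of 16 contexts before G14, with a mean of 0.31 ± 0.17, and in 13 of 21 without it. T13C before G14 was thus higher in every context in both tables. In each of these contexts the change also creates a CpG at positions 13 and 14. With no methylation state given here for either table, an effect of the base cannot be told apart from one of CpG methylation.

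Additivity was poorer in the R4-R6 reaction relative to its counting error. The additive model held 83.0% of the variance, but its residual SD of 0.40 was 5.78 times the counting SE. Of the 54 double variants, 35 (64.8%) lay above the sum of their singles by more than 2 counting SE and 3 (5.56%) below. These shares are near those of the 108 double variants of the whole R4-R5 block, 63.9% above and 8.33% below. The median counting SE of these departures was 0.10, against 0.23 in the 16-base table, so smaller departures could be detected there.

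The number of G and C went with the ratio in the R4-R6 reaction mainly through G at position 14. Mean log ratios there were 0.40 with G at that position, against -1.14 with C, -1.54 with A and -1.03 with T. The slope over all members was 0.27 ± 0.07 per G or C and held 8.07% of the variance. Split by position, it was 1.15 ± 0.11 for G or C at position 14, against -0.01 at 13, -0.23 at 15 and -0.16 at 16, each ± 0.11. Among the 63 members that keep G14 the slope was -0.39 ± 0.07, and among the 111 that lost it -0.08 ± 0.05. In the 16-base table the same sets had slopes of 0.28 ± 0.02 and 0.18 ± 0.02.

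Over all 174 members the log ratios of the 2 tables had r = 0.41 and rho = 0.43, given as a description over sequences that share bases and depth. Among the 63 that keep G14 they had r = -0.44 and rho = -0.44, and among the 111 that lost it r = 0.08 and rho = 0.09. Within classes of equal G and C number r lay between 0.25 (n = 14) and 0.38 (n = 36). In 4 of these classes rho was 0.22 to 0.32, and among the 8 members with 4 G or C it was -0.19.

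Against the reference, 37 members were lower by more than 2 counting SE in both tables and 0 were higher in both. All 23 that were higher in the 16-base table were lower in the R4-R6 reaction. In that reaction 96% of all members and 95.9% of the block were lower than the reference, so almost any set of members would be lower there. These counts depend on the reference, which is among the highest sequences of the R4-R6 reaction. Against the median of the members, 39 were higher in both tables, 23 were lower in both and 7 went in opposite directions. By this rule 44 members were higher and 27 lower in the 16-base table. Shares over all sequences were not computed for it. Higher in the 16-base table and lower in the reaction were GAAG (ratios of 42.1 and 0.319), TAGC (ratios of 49.1 and 0.202), TCCG (ratios of 43.3 and 0.196) and TCGG, all of which lack G14. The reverse held for ACAA (ratios of 20.7 and 0.893), AGAG (ratios of 24.9 and 2.08) and AGTA (ratios of 24.6 and 2.28), of which the last pair keeps G14. TCGG had a ratio of 49.3 in the 16-base table, from 4557 bound and 92 unbound reads, and of 0.205 in the R4-R6 reaction, from 495 and 2418.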

How the data were processed

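Per the file headers, each deposited line holds a sequence, its bound and its unbound read count and the ratio of both. A last column that the authors left unnamed matches minus the natural log of this ratio within 0.0005. The deposited counts are whole numbers and were used as given. How reads were counted and filtered is not given in the sources used. Each reaction has 1 library per fraction, so no test or p-value was computed.

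Log ratios were computed from the counts plus 0.5, for sequences with 10 or more bound and unbound reads. The counting SE is the square root of the summed reciprocals of both counts after the same addition. A member was called when it differed from the reference by more than 2 counting SE. Members were matched between tables by positions 10 to 16. Slopes and additive terms are ordinary least squares. Positions count from 1 at the first listed base, and a substitution gives the reference base, the position and the variant base.

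Named sequences were the reference, its single variants, the extremes of each set of positions and of G and C number, the 3 double variants furthest from additivity on each side, and members called in opposite directions in both tables. Others were picked after their values were seen: those with a tied or nearly equal value, those for which a count of 5 or fewer is named, and the R4-R6 examples. Members and lists were chosen with earlier results of these data known. The scripts were tested on simulated data. Computations used Python 3.11.15, numpy 2.4.6 and scipy 1.17.1.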

Additional observations from a re-analysis of the deposited data

Results flagged for a closer look

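Members called in opposite directions against the reference in the 2 tables were marked for a closer look. With 1 bound and 1 unbound library behind each table, the difference between them was not tested. All 23 were higher in the 16-base table and lower in the R4-R6 reaction. By the same rule 96% of all 174 members and 95.9% of the block were lower than the reference in that reaction. Being lower there is thus near the share of all sequences and does not set the 23 apart. The values below are log ratios relative to the reference, first in the 16-base table and then in the R4-R6 reaction.

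The 8 members with 4 G or C were all among them. CGCC was at 0.89 and -0.67, GGCG at 0.65 and -1.84, and GGGG at 0.63 and -1.88. CGGG was at 0.60 and -1.25, GGGC at 0.59 and -1.86, and CGGC at 0.56 and -1.20. CGCG was at 0.52 and -0.58, and GGCC at 0.46 and -1.80.

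Another 14 hold 3 G or C. TGGG was at 0.52 and -1.54, TGCC at 0.49 and -0.95, and GGGT at 0.48 and -1.51. GGCA was at 0.48 and -1.81, GGTG at 0.44 and -1.79, and CGCA at 0.39 and -0.45. AGGC was at 0.38 and -1.04, CGCT at 0.38 and -0.40, and CGTG at 0.36 and -0.73. GGTC was at 0.34 and -1.73, GCGA at 0.33 and -2.10, and TCGG at 0.32 and -2.88. AGGG was at 0.29 and -1.09, and GGCT at 0.25 and -1.66.

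The remaining one, the single variant GGAA (T13G), holds 2 and was at 0.22 and -1.18. GCGA and TCGG are the only 2 of the 23 that lack G14. Against the median of the members instead of the reference, 4 members were higher in the 16-base table and lower in the reaction, and only TCGG of the 23 was among them.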

How the results depend on the processing

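Of 49 alternative values, 34 stayed within their counting or regression interval or within 1.5 times the count, 15 moved and 0 changed sign. The alternatives without a minimum of reads are among the 34 and repeat the main values, since all 174 members passed the minimum. Counts and shares of variance could not change sign, so the tally says little about robustness. The slope per G or C stayed between 0.23 and 0.27 in all its alternatives. Against the reference, 20 members were lower and 12 higher beyond 3 counting SE, and 23 lower and 13 higher when a 1.5-fold difference was also required. Compared with the median of the members, 44 were higher. From summed counts the log ratios were 3.50, 3.52 and 3.65 for 1, 2 and 3 mismatches. A fit weighted by counting variance gave the additive model 75.2% of the variance. Beyond 3 counting SE, 1 double variant lay above the sum of its singles. An alternative chosen after seeing the data set both tables against the median of the members. It gave 4 members higher in the 16-base table and lower in the R4-R6 reaction, 3 the reverse, 23 lower in both and 39 higher in both. Members with a CpG differed from the rest by 0.011 at equal G and C number. Beyond these constructions the cause was not tested. Depth limits the 16-base values through the unbound reads, and 11 of 174 members had fewer than 30. No paired analysis was possible because each reaction has 1 library per fraction and the labels give no replicate numbers.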
